A study of Homo sapiens with 12 samples.

Results

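The sorting nexins (SNX) and the vacuolar protein sorting (VPS) genes were followed in C4-2 cells after knockdown of choline kinase alpha (CHKA). The group was formed from gene symbols and a read minimum. It held the protein-coding genes named SNX plus a number, or VPS plus a number and at most 1 letter, that had at least 50 reads over the 12 samples together. Of 64 genes that met the naming rule, 63 reached this minimum, out of 54127 gene identifiers in the count tables. They comprised 29 SNX and 34 VPS genes. SNX31, with 1 read in all, was the gene left out. The rule also took in VPS72, a chromatin protein that deposits the histone variant H2A.Z and has no part in endosomal transport.

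C4-2 is an established human prostate cancer cell line that descends from LNCaP and expresses the androgen receptor. It was grown in RPMI medium with 10% FBS and reverse transfected with 50 nM of an siRNA pool, against CHKA in 6 samples (SiCHKA in the labels, here siCHKA) and nontargeting in the other 6 (SiNTCONTROL, here siNT). CHKA makes phosphocholine in the first step of the Kennedy pathway, the main route to phosphatidylcholine. The comparison asks which transcripts differed after CHKA depletion in this 1 cell line, with 1 pool against CHKA and no rescue, so an effect of the pool and of CHKA loss cannot be told apart.

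Endosomes sort membrane proteins either back to the cell surface and the Golgi or onward to the lysosome. Sorting nexins bind endosomal phosphoinositides through a PX domain, and those with a BAR domain bend the membrane into tubules. VPS proteins form the large machines of this route. Retromer and retriever recover cargo, the ESCRT complexes pack ubiquitylated cargo into inner vesicles, HOPS, CORVET, GARP and EARP tether membranes before fusion, and the VPS13 proteins carry lipids between organelles.

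Reads on genes numbered 10685184 to 24246055 per sample. CHKA itself measured 1.91, 2.31 and 4.67 CPM after siCHKA against 36.7, 41.6 and 43.3 CPM after siNT (log2 fold change -3.88 ± 0.14, adjusted p = 5.89e-13), which checked the labels in all 12 samples. Here and below, 3 values are the lowest, the median and the highest sample of a group, gene values without a unit are log2 fold changes of siCHKA over siNT, ± after them is the standard error, and CPM is the read count scaled to the library size after TMM normalization. All 9 prostate epithelial markers examined were expressed. Of 12 markers of other cells 11 were in the tables, with a summed level of 30.9 to 38.8 CPM after siCHKA and 19.0 to 27.4 CPM after siNT. Most of that sum was COL1A1, which was higher after siCHKA at 0.82 (adjusted p = 7.31e-07). KRT14 and CD68 were higher too, at 0.58 (adjusted p = 0.00247) and 0.68 (adjusted p = 2.55e-04), and VWF was lower at -0.995 (adjusted p = 4.77e-05). The rest, with KRT5, TP63, LYZ and CDH5 at 0 in most samples, were too low to test. The part of these markers in the results was not tested. The siCHKA samples 1, 3 and 5 stood apart from 2, 4 and 6. The chi-square per degree of freedom between count profiles was 2.39 to 9.50 within these sets and 12.5 to 24.9 across them. siNT pairs gave 2.51 to 30.9 with no such split. Main values use all 6 siCHKA samples, and values for each set of 3 against all siNT are given where the call differs between the sets, a difference that was not itself tested. As cells were pooled in bulk, fewer cells with a transcript and less transcript per cell cannot be told apart.

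Of the 63 members 62 could be tested. After siCHKA, 15 were lower and 22 higher at an adjusted p below 0.05, and 25 did not pass. Among all 14501 genes tested, 30.1% were lower and 32.1% higher, so the members' shares of 24.2% and 35.5% stood near the background. Their median log2 fold change was 0.07 against 0.03 over all genes, and the median size regardless of sign was 0.25 against 0.31. In all, 8 members, or 12.9%, passed and moved by at least 1.5-fold (3 lower and 5 higher), beside 24.8% of all genes. In 26 members, or 41.9%, the 6 siCHKA and 6 siNT samples did not overlap, beside 40.6% of all genes. The group as a whole therefore did not move one way. Lower and higher members stood side by side within retromer, all 3 sets of SNX-BAR proteins, the PX-only and RGS nexins, ESCRT-I, HOPS, GARP and the VPS13 family, as shown in the plot of fold changes by complex.

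**Figure D1:**
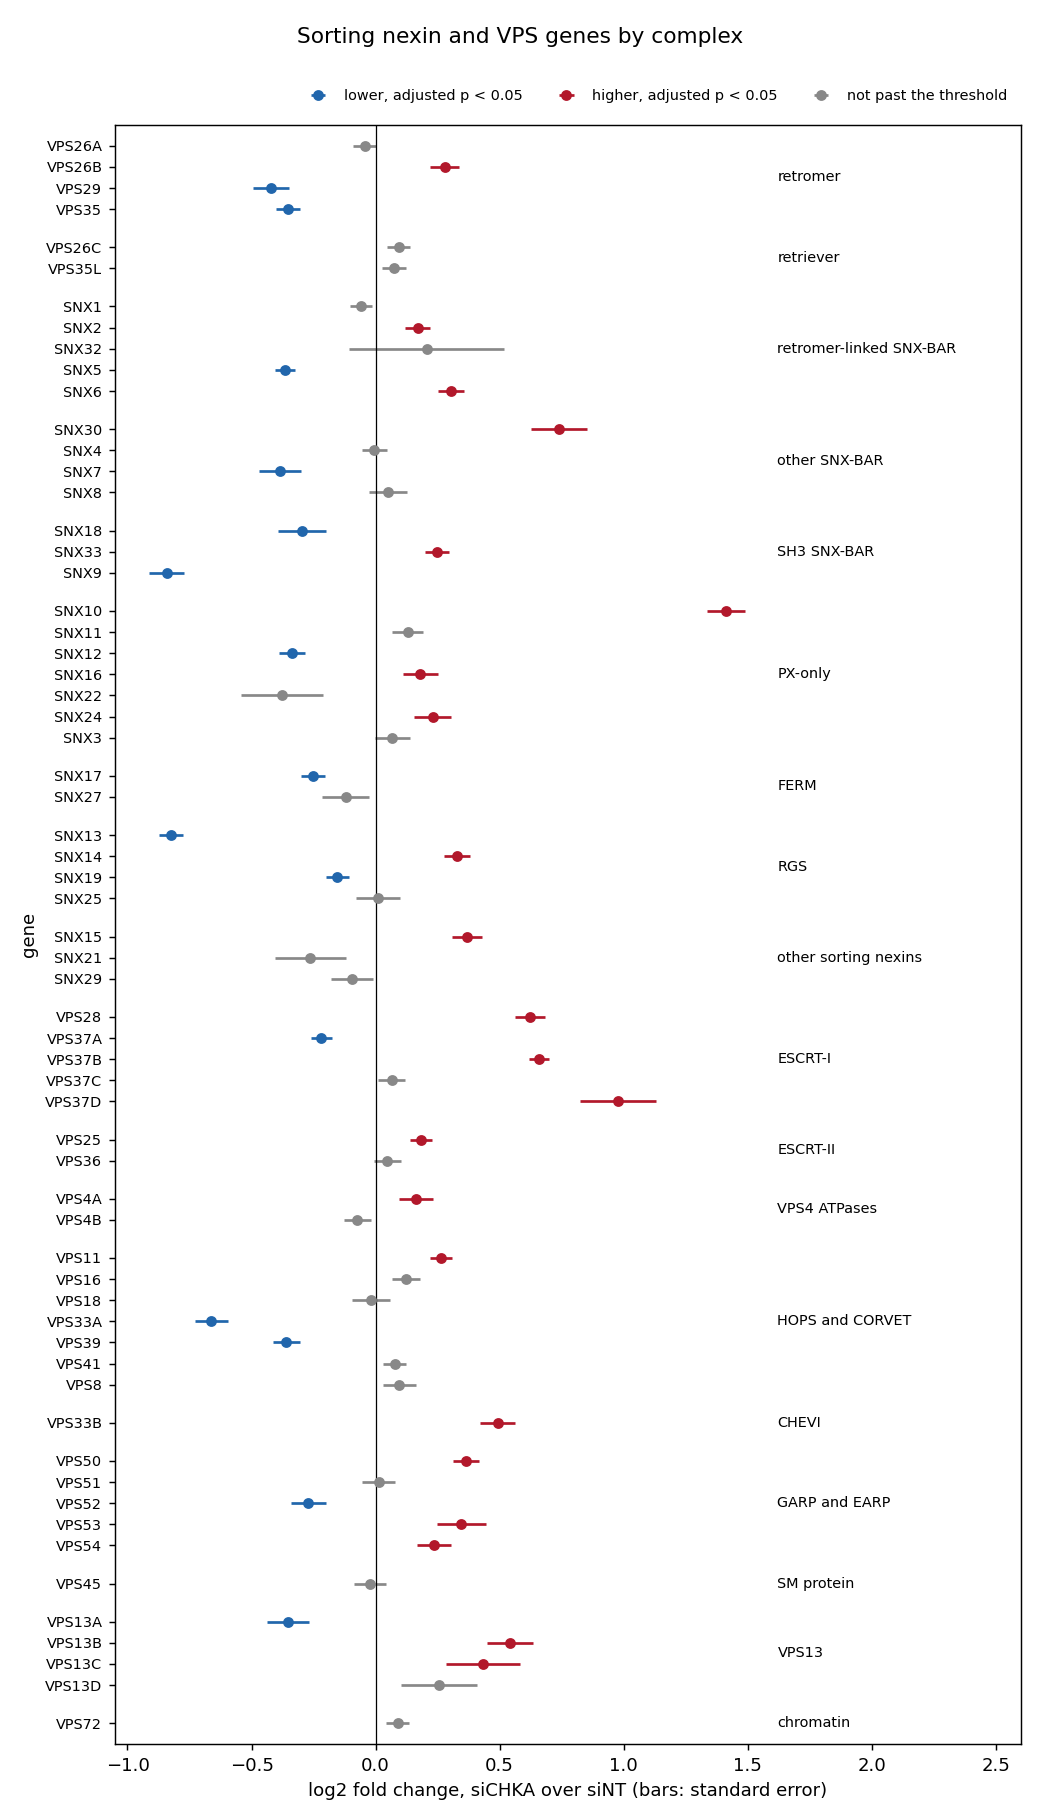
Log2 fold change (siCHKA over siNT) of the 62 members tested, grouped by complex, with bars for ± 1 standard error and colour for the call at an adjusted p below 0.05. SNX10 lies farthest to the right at 1.41 and SNX9 farthest to the left at -0.84, and most complexes hold members on both sides of 0.

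**Figure D2:**
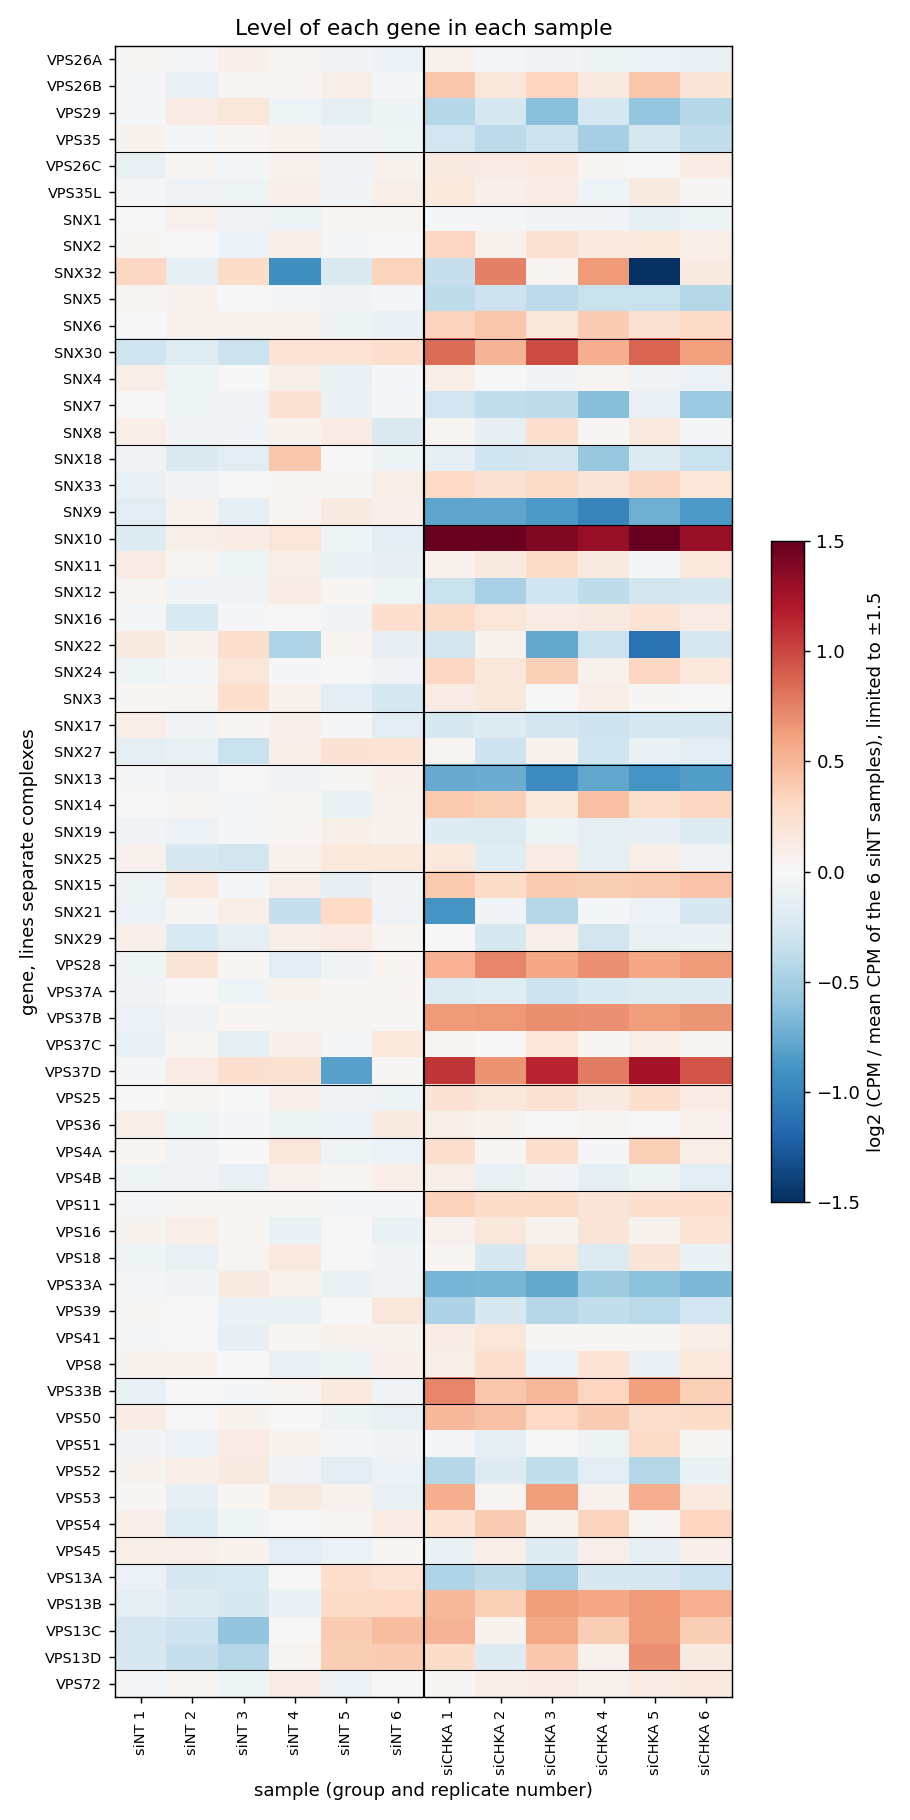
Log2 of the CPM of each tested member in each of the 12 samples over that member's mean CPM in the 6 siNT samples. Members are grouped by complex, and values past the ends of the colour scale are drawn at its ends. Columns 1, 3 and 5 of siCHKA differ from 2, 4 and 6 for VPS53 and VPS13D, whereas SNX10, SNX13 and VPS37B look alike in all 6.

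The largest change among the members was in SNX10, a small PX-only sorting nexin known for its role in osteoclasts and in osteopetrosis. On GRCh38, SNX10 (ENSG00000086300, chromosome 7, 26291862 to 26374383) is a gene of the plus strand. It measured 24.6, 27.0 and 29.4 CPM after siCHKA against 8.71, 10.1 and 11.3 CPM after siNT, so its lowest siCHKA sample lay above the highest siNT sample by more than the width of either group. The fold change was 2.67 (log2 fold change 1.41 ± 0.077, adjusted p = 6.79e-11). The rise was alike in both siCHKA sets, at 1.47 for samples 1, 3 and 5 and 1.35 for samples 2, 4 and 6. On the scale of CPM per kilobase of transcript, SNX10 ranked 55 of 63 members in siNT cells. Its antisense gene SNX10-AS1 covers 10.9% of its exon bases, and no source used here says whether counting used strand.

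SNX11, the closest relative of SNX10, did not pass the test. It measured 30.2, 33.5 and 37.0 CPM after siCHKA against 27.9, 30.4 and 33.4 CPM after siNT (log2 fold change 0.13 ± 0.062, adjusted p = 0.0806), and the groups overlapped. Without siCHKA sample 5 its adjusted p was 0.0444. Of the other PX-only members, SNX12, a relative of the retromer cargo adaptor SNX3, fell without overlap, with 52.7, 59.3 and 62.6 CPM after siCHKA against 71.0, 73.2 and 80.1 CPM after siNT (log2 fold change -0.34 ± 0.051, adjusted p = 2.10e-05). SNX3 was at 0.068 ± 0.071 and did not pass. SNX24 rose by 0.23 with overlapping groups, at 0.33 (adjusted p = 0.00314) with siCHKA samples 1, 3 and 5 and 0.13 (adjusted p = 0.191) with 2, 4 and 6. SNX16, which acts in EGF receptor traffic, was called higher at 0.18 (adjusted p = 0.0364) and did not pass with either siCHKA set. It also lost its call when any of 8 single samples was left out (siCHKA 1, 2 or 5, or siNT 1 to 5, adjusted p 0.0554 to 0.114). SNX22, at -0.38, did not pass. It was at -0.65 (adjusted p = 0.00561) with siCHKA samples 1, 3 and 5 and -0.17 (adjusted p = 0.338) with 2, 4 and 6, and passed without siCHKA sample 2 or siNT sample 4 (adjusted p 0.0142 and 0.0201) and in DESeq2 (adjusted p = 0.0457). The PPIB gene on the opposite strand shares 32.3% of SNX22 exon bases.

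**Figure D3:**
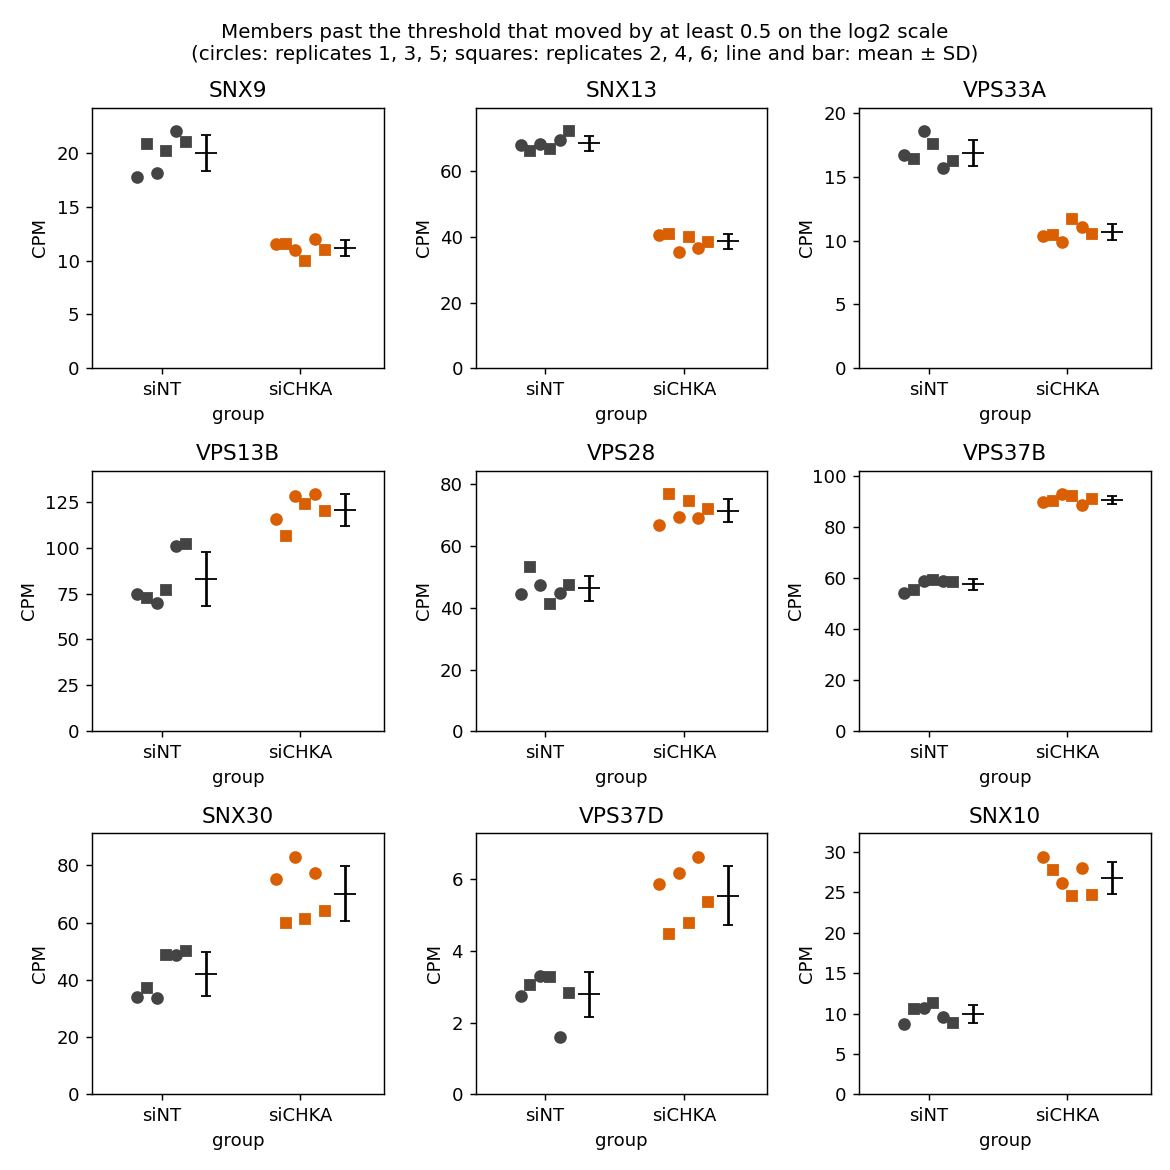
CPM in each sample for the 9 members that passed the test and moved by at least 0.5 on the log2 scale, with circles for samples 1, 3 and 5, squares for 2, 4 and 6, and a line and bar for mean ± SD of 6 samples. In all 9 panels the siNT and siCHKA points occupy separate ranges, closest for VPS13B, where siNT samples 5 and 6 reach 101 and 102 CPM.

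Short stretches of the promoters of 5 changed members, and of VPS26C, which did not pass, are shown because 3 known motifs occurred there. These motifs, CACGTG (an E-box bound by MYC, USF and TFE factors), TGACTCA (the AP-1 element) and TGACGTCA (the CRE), were chosen after the values were seen and searched on both strands in RefSeq promoters, 250 bases before to 50 after a start. The table held 62 promoters of 47 of the 63 members. Coordinates are on GRCh38.p14, capitals mark the motif, and the strand is that of the gene.
SNX10, chr7:26291689-26291717, plus strand: gaagcttaaggTGACTCAggtggcgaatt
SNX5, chr20:17968845-17968874, minus strand: acgagatctggTGACGTCAgcgctcgctgc
VPS37B, chr12:122896170-122896199, minus strand: ccgcgcggtgaTGACGTCAcgacccagggc
VPS37B, chr12:122896146-122896175, minus strand: cagggctggcgtCACGTGtcccccccgcgg
VPS11, chr11:119067772-119067801, plus strand: gctggctcagctCACGTGacaaagctcccg
VPS50, chr7:93232351-93232380, plus strand: ggtcggctcctcCACGTGaccacccactat
VPS26C, chr21:37267398-37267427, minus strand: ccgctgcgaggtCACGTGagccactgccgg
TGACTCA lay in 3 of the 62 member promoters (4.84%), near the 4.95% of all 35116 promoters. All 3 belong to SNX10 and hold the same site, 162, 178 and 195 bases before 3 of its annotated starts. TGACGTCA lay in 2 of the 62 member promoters (3.23%) and in 1.85% of all. These were of SNX5, which was lower, and VPS37B, which was higher. CACGTG lay in 9 of the 62 member promoters (14.5%) and in 7.26% of all. Of the 8 members that held it, VPS11, VPS37B and VPS50 were higher and SNX8, VPS8, VPS16, VPS26C and VPS36 did not pass. The motifs do not overlap one another in the stretches shown, and a match is a description of the letters only.

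Retromer, the trimer of VPS35, VPS29 and a VPS26 subunit, had members on both sides. Its scaffold VPS35 measured 158, 175 and 186 CPM after siCHKA against 213, 223 and 232 CPM after siNT (log2 fold change -0.35 ± 0.049, adjusted p = 8.14e-06). VPS29, which is shared with retriever, measured 58.8, 67.5 and 76.2 CPM after siCHKA against 82.0, 87.9 and 102 CPM after siNT (log2 fold change -0.42 ± 0.073, adjusted p = 8.17e-05). For both genes every siCHKA sample lay below every siNT sample. VPS26B instead rose without overlap, with 113, 123 and 137 CPM after siCHKA against 94.8, 103 and 109 CPM after siNT (log2 fold change 0.28 ± 0.059, adjusted p = 5.30e-04). NCAPD3 on the opposite strand covers 6.80% of its exon bases. VPS26A, its relative, was at -0.044 ± 0.046 and did not pass. The retriever subunits VPS26C and VPS35L, at 0.093 ± 0.046 and 0.075 ± 0.050, did not pass either, although VPS35L did with 1 set, at 0.14 (adjusted p = 0.0433) with siCHKA samples 1, 3 and 5 and 0.0069 (adjusted p = 0.924) with 2, 4 and 6.

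The SNX-BAR proteins linked to retromer pair SNX1 or SNX2 with SNX5 or SNX6. SNX5 measured 92.3, 97.2 and 100.2 CPM after siCHKA against 119.7, 124 and 129.6 CPM after siNT. SNX6 measured 154, 169 and 182 CPM after siCHKA against 128, 139 and 143 CPM after siNT. The groups were apart in opposite directions, SNX5 falling (log2 fold change -0.36 ± 0.042, adjusted p = 8.50e-07) and SNX6 rising (log2 fold change 0.30 ± 0.053, adjusted p = 8.71e-05). SNX2 rose by 0.17 with overlapping groups (adjusted p = 0.00734), at 0.24 (adjusted p = 0.00197) with siCHKA samples 1, 3 and 5 and 0.10 (adjusted p = 0.113) with 2, 4 and 6. SNX1, at -0.058 ± 0.043, did not pass, nor did SNX32, a nervous system relative that reached at most 1.05 CPM in any sample.

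SNX7 and SNX30 are alternative partners of SNX4 in a recycling and autophagy complex. SNX30 rose from 33.7, 42.8 and 50.2 CPM in siNT to 60.0, 69.7 and 82.9 CPM in siCHKA samples (log2 fold change 0.74 ± 0.11, adjusted p = 2.08e-05). SNX7 fell to 14.9, 17.8 and 21.4 CPM from 21.5, 22.6 and 26.9 CPM (log2 fold change -0.38 ± 0.084, adjusted p = 7.54e-04). Neither gene had overlapping groups, although the gap for SNX7 was narrow, from 21.4 to 21.5 CPM. Their shared partner SNX4, at -0.0053 ± 0.050, did not pass. In siCHKA samples 1, 3 and 5 and in 2, 4 and 6, the log2 fold changes were 0.91 and 0.55 for SNX30 and -0.26 and -0.52 for SNX7, a difference that was not tested. SNX8, at 0.050 ± 0.077, did not pass.

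SNX9, SNX18 and SNX33 carry an SH3 domain and act with dynamin and actin at endocytic sites. The largest fall of all members was in SNX9 (ENSG00000130340, chromosome 6, 157700387 to 157945077), which measured 9.97, 11.3 and 12.02 CPM after siCHKA against 17.8, 20.5 and 22.0 CPM after siNT (log2 fold change -0.84 ± 0.071, adjusted p = 2.16e-08). No siCHKA sample reached the siNT range. SNX18 fell by less and with overlap, 26.4, 32.1 and 35.5 CPM after siCHKA against 33.6, 37.4 and 51.9 CPM after siNT (log2 fold change -0.30 ± 0.10, adjusted p = 0.0129). In siCHKA samples 1, 3 and 5 alone it did not pass (log2 fold change -0.20, adjusted p = 0.133). SNX33 rose without overlap, from 33.3, 36.0 and 38.0 CPM to 40.5, 42.7 and 44.4 CPM (log2 fold change 0.25 ± 0.049, adjusted p = 2.79e-04).

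SNX13, SNX14, SNX19 and SNX25 belong to the SNX-RGS family of membrane-anchored PX proteins. SNX13 (ENSG00000071189, chromosome 7, 17790761 to 17940501) measured 35.4, 39.1 and 40.7 CPM after siCHKA against 65.9, 68.0 and 72.0 CPM after siNT (log2 fold change -0.82 ± 0.048, adjusted p = 1.88e-10). Its siCHKA samples were below all siNT samples and close to one another. SNX14, whose loss causes a cerebellar ataxia and which tethers the endoplasmic reticulum to lipid droplets, rose without overlap, 76.9, 86.9 and 93.8 CPM after siCHKA against 64.4, 69.3 and 71.8 CPM after siNT (log2 fold change 0.33 ± 0.052, adjusted p = 3.64e-05). SNX19 had a log2 fold change of -0.15 ± 0.046 and was called lower with overlapping groups. It was at -0.13 (adjusted p = 0.0749) with siCHKA samples 1, 3 and 5 and -0.19 (adjusted p = 0.00765) with 2, 4 and 6. SNX25 was at 0.0085 ± 0.088. SNX17, the FERM protein that hands integrins and LRP1 to retriever, measured 86.8, 91.0 and 94.1 CPM after siCHKA against 95.6, 108 and 116 CPM after siNT (log2 fold change -0.25 ± 0.049, adjusted p = 2.84e-04), and its groups did not overlap. SNX27, which recycles PDZ-binding cargo with retromer, was at -0.12 ± 0.094 and passed only with siCHKA samples 2, 4 and 6 (-0.26, adjusted p = 0.0371). Among the remaining nexins SNX15 rose without overlap, 24.4, 26.4 and 27.3 CPM after siCHKA against 18.6, 19.9 and 22.4 CPM after siNT (log2 fold change 0.37 ± 0.059, adjusted p = 3.81e-05). SNX21, at -0.26 ± 0.14, did not pass, and was at -0.46 (adjusted p = 0.0252) with siCHKA samples 1, 3 and 5 and -0.11 (adjusted p = 0.483) with 2, 4 and 6. SNX29, at -0.10 ± 0.085, did not pass, and SNX20, with 56 reads, was too low to test.

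The 5 VPS-named subunits of ESCRT-I held the most large changes of the complexes listed, 3 rising by at least 1.5-fold, beside 13.4% of all genes. They are singled out after the values were seen, from many small lists. ESCRT-I joins TSG101 and VPS28 with 1 of 4 alternative VPS37 subunits. TSG101 and the other ESCRT-I genes were counted with the partners, and none of them reached 1.5-fold. VPS28 measured 66.8, 70.7 and 76.8 CPM after siCHKA against 41.2, 46.0 and 53.1 CPM after siNT (log2 fold change 0.62 ± 0.059, adjusted p = 9.76e-08). VPS37B measured 88.5, 90.5 and 92.8 CPM after siCHKA against 54.3, 58.6 and 59.2 CPM after siNT (log2 fold change 0.66 ± 0.041, adjusted p = 4.42e-10), with little spread in either group. VPS37D, the scarcest VPS37 subunit by CPM per kilobase, measured 4.46, 5.62 and 6.62 CPM after siCHKA against 1.59, 2.93 and 3.29 CPM after siNT (log2 fold change 0.98 ± 0.15, adjusted p = 3.25e-05), also without overlap. VPS37A fell, with 65.7, 70.4 and 71.6 CPM after siCHKA against 77.6, 82.0 and 84.3 CPM after siNT (log2 fold change -0.22 ± 0.042, adjusted p = 2.25e-04). VPS37C was at 0.065 ± 0.054 and did not pass. Exon bases of VPS37A and VPS37B are shared with genes on the opposite strand over 27.2% and 17.9% of their length.

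The other ESCRT members of the group moved less. VPS25 of ESCRT-II rose without overlap, from 105, 110.4 and 117 CPM to 120.0, 126 and 130.1 CPM (log2 fold change 0.18 ± 0.044, adjusted p = 0.00169), and VPS36 of the same complex, at 0.048 ± 0.053, did not pass. The ATPases VPS4A and VPS4B take ESCRT-III filaments apart. VPS4A was called higher at 0.16 (adjusted p = 0.0443) and lost the call without any of 8 single samples (siCHKA 1, 3 or 5, or siNT 1, 2, 3, 5 or 6, adjusted p 0.0760 to 0.118). Its log2 fold change was 0.29 with siCHKA samples 1, 3 and 5 and 0.024 with 2, 4 and 6. VPS4B, at -0.074 ± 0.054, did not pass, and was at -0.0056 (adjusted p = 0.948) with siCHKA samples 1, 3 and 5 and -0.15 (adjusted p = 0.0376) with 2, 4 and 6.

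HOPS and CORVET share a core of VPS11, VPS16, VPS18 and VPS33A and tether late and early endosomes. VPS33A, the SNARE-binding SM protein of the core, measured 9.89, 10.5 and 11.7 CPM after siCHKA against 15.7, 16.6 and 18.6 CPM after siNT (log2 fold change -0.66 ± 0.066, adjusted p = 1.73e-07), with no overlap. A readthrough gene on the same strand shares 35.3% of its exon bases. VPS39, which joins the core together with VPS41 in HOPS, fell as well, 56.4, 59.9 and 65.9 CPM after siCHKA against 72.8, 78.0 and 87.5 CPM after siNT (log2 fold change -0.36 ± 0.055, adjusted p = 2.25e-05). VPS11 of the core rose, from 34.8, 35.6 and 36.1 CPM to 40.6, 42.6 and 45.0 CPM (log2 fold change 0.26 ± 0.044, adjusted p = 5.66e-05). VPS16, VPS18, VPS41 and the CORVET subunit VPS8 did not pass, and their log2 fold changes lay from -0.020 to 0.12. With siCHKA samples 1, 3 and 5 and with 2, 4 and 6, in that order, VPS8 was at -0.025 (adjusted p = 0.764) and 0.20 (adjusted p = 0.00583), VPS16 at 0.057 (adjusted p = 0.487) and 0.18 (adjusted p = 0.0221) and VPS18 at 0.13 (adjusted p = 0.113) and -0.19 (adjusted p = 0.0231). The 7 members of HOPS and CORVET thus counted 3 lower and 3 higher with the latter set, against 2 and 1 in all samples. Of all genes 30.1% were lower and 32.1% higher in all samples, and the shares with the latter set were close to these. VPS33B, the relative of VPS33A in the CHEVI complex, rose without overlap, 38.6, 42.5 and 51.1 CPM after siCHKA against 28.7, 30.6 and 34.1 CPM after siNT (log2 fold change 0.49 ± 0.071, adjusted p = 1.13e-05). The SM protein VPS45 was at -0.022 ± 0.063 and the chromatin protein VPS72 at 0.089 ± 0.047, and neither passed.

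GARP returns cargo from endosomes to the Golgi and shares VPS51, VPS52 and VPS53 with EARP, in which VPS50 takes the place of VPS54. VPS50 measured 57.0, 60.1 and 66.4 CPM after siCHKA against 43.9, 47.4 and 51.1 CPM after siNT (log2 fold change 0.36 ± 0.054, adjusted p = 1.67e-05), and the groups were apart. VPS54 and VPS53 rose by 0.24 and 0.35 with overlap. VPS52 fell with a narrow overlap, 32.1, 35.8 and 40.3 CPM after siCHKA against 38.8, 43.2 and 47.4 CPM after siNT (log2 fold change -0.27 ± 0.071, adjusted p = 0.00298), and VPS51 was at 0.012 ± 0.066. VPS53, VPS54 and VPS52 each passed with 1 siCHKA set and not with the other, and the difference between the sets was not tested. VPS53 was at 0.57 in samples 1, 3 and 5 and 0.078 in 2, 4 and 6. VPS54 ran the other way, at 0.11 and 0.34, and VPS52 was at -0.40 and -0.16.

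The VPS13 genes encode very large lipid transfer proteins at organelle contacts. VPS13B, linked to Cohen syndrome, measured 106, 122 and 129 CPM after siCHKA against 69.9, 76.0 and 102 CPM after siNT (log2 fold change 0.54 ± 0.092, adjusted p = 7.10e-05) and its groups were apart. VPS13A, linked to chorea-acanthocytosis, fell, with 203, 225 and 243 CPM after siCHKA against 243, 279 and 344 CPM after siNT (log2 fold change -0.35 ± 0.085, adjusted p = 0.00165) and a narrow overlap. VPS13C, linked to early-onset parkinsonism, rose with a wide overlap, 72.5, 95.1 and 109 CPM after siCHKA against 46.5, 64.4 and 96.6 CPM after siNT (log2 fold change 0.43 ± 0.15, adjusted p = 0.0188). It was at 0.58 (adjusted p = 0.00553) with siCHKA samples 1, 3 and 5 and 0.27 (adjusted p = 0.191) with 2, 4 and 6, and without siNT sample 1 its adjusted p was 0.0513. VPS13D was at 0.26 ± 0.15 and did not pass, but with siCHKA samples 1, 3 and 5 alone it was at 0.47 (adjusted p = 0.0139) and with 2, 4 and 6 at 0.0083. In siNT cells the 2 highest samples for all 4 VPS13 genes were 5 and 6, whose count profiles were also the closest siNT pair.

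Alternative subunits and close relatives were compared directly as ratios of their counts, which do not depend on library scaling. Of 18 pairs, 15 differed between the groups in an exact two-sided permutation test over samples, adjusted over the pairs, and in 11 the groups did not overlap. The smallest p that 6 against 6 samples allow, 0.00216, was reached by those 11. The pairs were chosen with earlier results known. Over all 1891 possible pairs of tested members, 41.9% did not overlap, which is the share to set beside the 11, so such shifts were common. How many of all these pairs would pass the permutation test was not counted. The 15 of 18 therefore has no background share and is not read as a trait of relatives. In log2 units of siCHKA minus siNT, the SNX10 to SNX11 ratio moved by 1.30 ± 0.10, VPS33A to VPS33B by -1.15 ± 0.10, SNX7 to SNX30 by -1.13 ± 0.13 and VPS37A to VPS37B by -0.88 ± 0.035.

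The log2 ratio of VPS37A to VPS37B reads, which also holds their unlike transcript lengths, was 0.40 to 0.56 in siNT and -0.50 to -0.33 in siCHKA samples. Per kilobase VPS37B was the higher of the pair in both groups, at 21.2 ± 0.793 against 18.0 ± 0.578 CPM per kilobase in siNT and 33.5 ± 0.594 against 15.4 ± 0.474 in siCHKA cells (SD). These levels are not corrected for exon bases shared with genes on the opposite strand, 27.2% for VPS37A and 17.9% for VPS37B. With the strand setting unknown, the order in siNT cells is therefore not sure. The SNX5 to SNX6 ratio moved by -0.67 ± 0.042, SNX13 to SNX25 by -0.83 ± 0.11, VPS13A to VPS13C by -0.81 ± 0.13, and VPS37C to VPS37B by -0.59 ± 0.050. The SNX9 to SNX18, VPS35 to VPS35L and VPS26A to VPS26B ratios moved by -0.55 ± 0.10, -0.43 ± 0.036 and -0.32 ± 0.059. Pairs that differed with overlap were SNX3 to SNX12, SNX1 to SNX2, VPS4A to VPS4B and VPS26A to VPS26C. Differences of -0.13 ± 0.13 for SNX17 to SNX27, -0.012 ± 0.066 for VPS41 to VPS8 and -0.14 ± 0.081 for VPS54 to VPS50 did not pass.

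**Figure D4:**
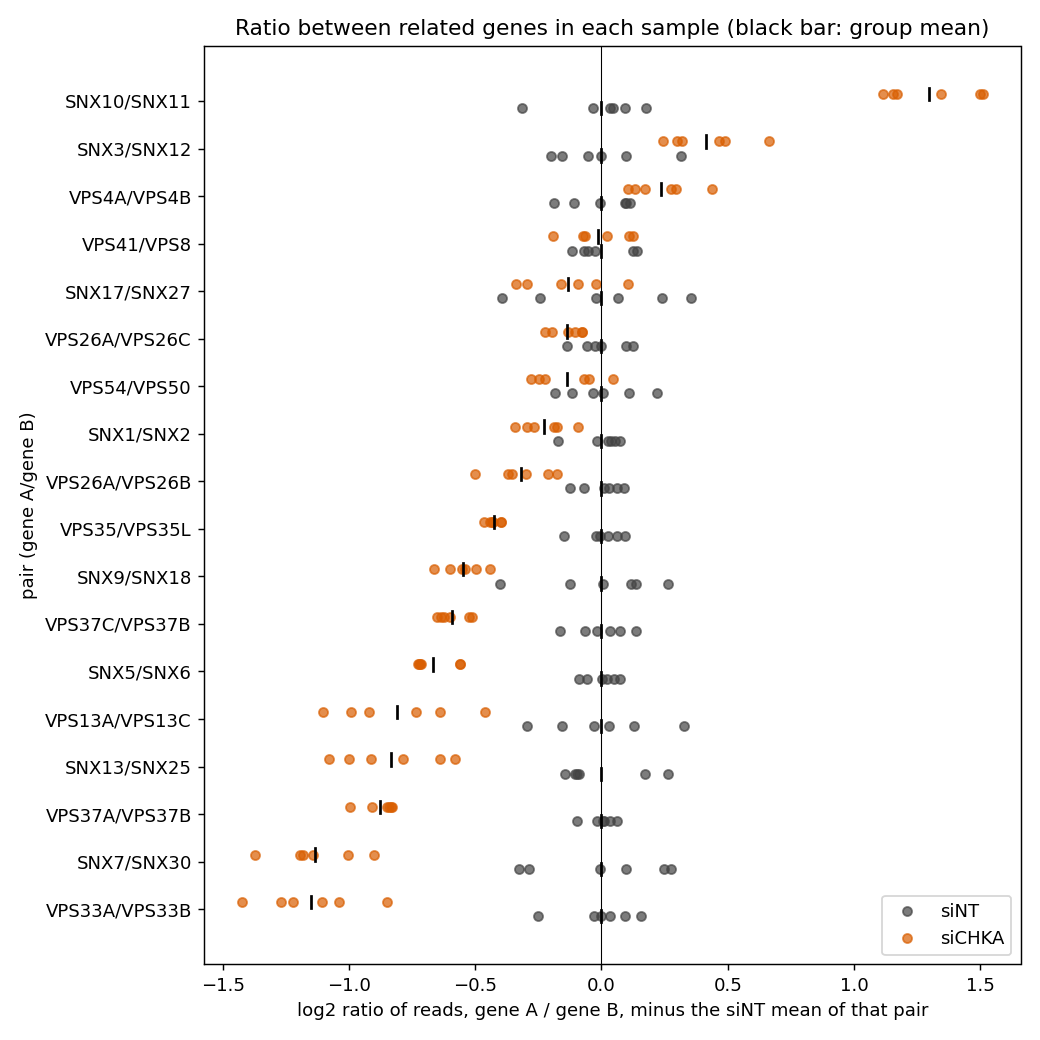
Log2 ratio of read counts for each of the 18 pairs of relatives or alternative subunits in each sample, minus the siNT mean of that pair. The siNT and siCHKA samples are side by side, and 0 marks the siNT mean and not equal reads. The groups are apart for 11 pairs. Before the subtraction VPS37A to VPS37B runs from 0.40 to 0.56 in siNT and from -0.50 to -0.33 in siCHKA.

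Levels were compared between genes as CPM per kilobase of the canonical transcript. In siNT cells SNX3 (107 ± 13.4, SD, n = 6) and VPS25 (101 ± 4.03) were the most abundant, and their difference was smaller than the spread of SNX3. VPS29 (59.2 ± 5.03), SNX5 (53.2 ± 1.57) and VPS28 (48.9 ± 4.23) followed, SNX5 and VPS28 each within the summed SDs of the gene before it. After siCHKA VPS28 reached 75.4 ± 3.97 and VPS29 was at 44.2 ± 4.76, so their order changed. At the low end stood SNX32 (0.367 ± 0.107) and SNX20 (0.0802 ± 0.0265). SNX10 went from 3.74 ± 0.405 to 10.0 ± 0.738. The coefficient of variation between samples had a median over members of 6.68% in siNT and 6.43% in siCHKA.

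Another 65 genes of the same routes were counted in the same fit, of which 64 were tested. Of these 24 were lower (37.5%) and 23 higher (35.9%), again beside 30.1% and 32.1% of all genes. In the retromer branch TBC1D5, which switches off RAB7 on retromer membranes, fell (31.8 ± 2.11 CPM after siCHKA and 81.6 ± 8.80 CPM after siNT, SD, log2 fold change -1.36 ± 0.072, adjusted p = 4.64e-11). WASHC3, a small subunit of the actin-nucleating WASH complex, also fell (9.25 ± 0.982 CPM after siCHKA and 24.6 ± 2.63 CPM after siNT, log2 fold change -1.41 ± 0.086, adjusted p = 3.15e-10). Of 6 WASH genes 3 were lower and 2 higher, the latter being WASHC2A and WASHC2C, near-identical copies whose reads cannot be assigned surely. In the CCC complex, which works with retriever, 5 of 12 were lower and 3 higher. The lower genes numbered 7 with siCHKA samples 1, 3 and 5 and 3 with 2, 4 and 6, a difference that was not tested. The share of all genes lower with either set was close to 30.1%.

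Of 13 cargo receptors 8 were lower and 4 higher, beside 30.1% and 32.1% of all genes. The lower ones numbered 5 with siCHKA samples 1, 3 and 5 and 8 with 2, 4 and 6, which was not tested as a difference. With either set the share of all genes lower was close to 30.1%. M6PR, a mannose 6-phosphate receptor, fell (36.7 ± 1.98 CPM after siCHKA and 81.3 ± 5.00 CPM after siNT, log2 fold change -1.15 ± 0.053, adjusted p = 8.72e-12). TFRC, the transferrin receptor, fell as well (619 ± 20.5 CPM after siCHKA and 1220.2 ± 79.1 CPM after siNT, log2 fold change -0.98 ± 0.053, adjusted p = 6.76e-11). LRP1, a lipoprotein receptor recycled by SNX17, rose (42.5 ± 9.65 CPM after siCHKA and 18.0 ± 4.30 CPM after siNT, log2 fold change 1.24 ± 0.16, adjusted p = 2.72e-06). M6PR, TFRC and LRP1 had no overlapping groups. IGF2R, also a mannose 6-phosphate receptor, was higher with overlapping groups and is named after the values were seen. It measured 432 ± 89.2 CPM after siCHKA and 313 ± 41.7 CPM after siNT (log2 fold change 0.46 ± 0.12, adjusted p = 0.00275). IGF2R was at 0.70 (adjusted p = 6.76e-06) with siCHKA samples 1, 3 and 5 and 0.18 (adjusted p = 0.108) with 2, 4 and 6.

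The ESCRT partners were 5 lower and 9 higher of 21 tested, beside 30.1% and 32.1% of all genes. The largest change among them, named after the values were seen, was the fall of CHMP1B of ESCRT-III (31.98 ± 3.66 CPM after siCHKA and 63.8 ± 5.63 CPM after siNT, log2 fold change -0.99 ± 0.077, adjusted p = 6.78e-09). CHMP2B, also named after the values were seen, was lower too, at -0.51 ± 0.066. CHMP2A, an ESCRT-III subunit, rose (145 ± 7.28 CPM after siCHKA and 83.9 ± 5.33 CPM after siNT, log2 fold change 0.78 ± 0.053, adjusted p = 1.05e-09). MVB12A of ESCRT-I, the complex of VPS28 and VPS37B, rose by 0.49 ± 0.047, and STAM2 of ESCRT-0 by 0.37 ± 0.042. Among the other ESCRT-I genes TSG101 rose by 0.24 ± 0.052 and UBAP1 by 0.20 ± 0.058, and MVB12B, at -0.14 ± 0.078, did not pass. UBAP1 was at 0.32 (adjusted p = 3.91e-05) with siCHKA samples 1, 3 and 5 and 0.062 (adjusted p = 0.267) with 2, 4 and 6. Of the VPS34 lipid kinase complexes, which make the phosphoinositide that PX domains bind, 1 of 6 genes was lower and 3 were higher. The PI(3,5)P2 enzymes had 1 of 3 higher, and the tether partners TGFBRAP1 and VIPAS39 were lower and higher, respectively.

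Of the 37 called members, 26 kept their call in all 20 refits and none turned direction in a refit that called it. With siCHKA samples 1, 3 and 5 alone there were 15 lower and 22 higher members, and with 2, 4 and 6 alone 17 lower and 18 higher. The shares of all genes called with either set were close to the 30.1% lower and 32.1% higher in all samples. In 3 cases a pair of members lies within 100 kb on GRCh38. SNX2 and SNX24 on chromosome 5, 8.90 kb apart, were both higher. SNX15 and VPS51 on chromosome 11 lie 48.8 kb apart, and of these SNX15 was higher. SNX1 and SNX22 on chromosome 15, 5.63 kb apart, did not pass.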

How the data were processed

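RNA from 12 C4-2 samples was sequenced as single-end reads of 40 bases. Per the labels and the study's methods, the authors aligned reads to GRCh37 with TopHat2 2.0.4, counted them on Ensembl genes with HTSeq 0.5.3p9, which drops reads with several alignments or on overlapping genes, and deposited raw counts in 4 tables per sample. The labels and the methods name different RNA kits, the labels mention flow sorting, and the strand setting is not given in the sources used here. The 4 count tables of a sample were summed. Rows that name no gene held 33.9% to 39.0% of counts and were left out. Between 10685184 and 24246055 reads on genes remained per sample, so that 3 counts equal 0.124 to 0.281 CPM (counting error only).

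Genes were named by Ensembl identifier through GENCODE release 44 (82.8% of identifiers matched), whose GRCh38 coordinates, exon overlaps and canonical lengths are used. edgeR 4.0.16 in R 4.3.3 (filterByExpr, TMM, quasi-likelihood test of 6 siCHKA against 6 siNT, no covariate) was run on all genes, with Benjamini-Hochberg adjustment over 14501 genes and calls below 0.05. Each standard error was the log2 fold change divided by the square root of F. Ratios used counts plus 0.5 with exact two-sided permutation tests (scipy 1.17.1). Nothing says that samples came from separate cultures in the labels. The study writes of biological triplicate experiments for its differentially expressed genes. For a plot of genes regulated by the androgen receptor it writes of 6 biological replicates. Whether the 6 samples of a group are independent units therefore cannot be told, and p-values measure the spread between these samples. The scripts were tested on simulated data.

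The members and the lists of complexes, pairs and partners were chosen with earlier results of these data known. Named are SNX10, the member with the smallest adjusted p in each direction per complex, called members of at least 0.5 on the log2 scale, genes of pairs whose ratio passed, 4 partners per direction and CHKA. Other members appear by value where they complete a complex. Further partners, such as CHMP1B, CHMP2B and IGF2R, were named after the values were seen. Others with changes of like size, such as COMMD2 and SORT1, were counted but are not described. The alternatives were RLE scaling, DESeq2 1.42.0, other count filters, 1 count table per sample, a replicate block, samples left out and a 1.5-fold threshold. With same-numbered samples the check for pairing is given with the alternatives.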

Additional observations from a re-analysis of the deposited data

Results flagged for a closer look

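In 132 groups of 6 samples examined (CPM of the named genes and ratios of the pairs), 3 held 1 sample far from the other 5, where chance gives about 6.6. For SNX7, siNT sample 4 measured 26.9 CPM and the others 21.5 to 23.0 CPM. The same sample was also high for SNX18, at 51.9 CPM against 33.6 to 39.4 CPM. Both genes were lower after siCHKA, and both kept that call without this sample. For VPS37D, siNT sample 5 measured 1.59 CPM and the others 2.73 to 3.29 CPM. VPS37D was higher after siCHKA with and without that sample.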

How the results depend on the processing

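Over the refits the number of lower members ranged from 12 (1 count table per sample) to 17 and of higher members from 18 to 26 (at least 10 counts in every sample). DESeq2 gave 16 and 18. A change of at least 1.5-fold left 3 lower and 5 higher of 62 members tested, and 8 lower and 3 higher of 64 partner genes tested. Of all genes 11.3% were lower and 13.4% higher at this threshold. The median log2 fold change of members, 0.07, was 0.13 with 1 count table per sample, 0.0927 with at least 10 counts in every sample, 0.0461 with no expression filter and 0.0390 with siCHKA samples 1, 3 and 5 left out. It ran from 0.049 (without siNT replicate 3) to 0.084 when single samples were left out. The cause was not tested. The log2 fold change of SNX25, which did not pass, turned sign from 0.0085 to -0.0134 in DESeq2, -0.0207 with no expression filter and -0.12 with siCHKA samples 1, 3 and 5 left out, and it ran from -0.050 to 0.045 when single samples were left out. The 15 pairs with a changed ratio became 12 with siCHKA samples 1, 3 and 5 left out, where 3 samples face 6, and 14 or 15 with single samples left out. Of the 37 calls 11 were lost in at least 1 refit, and 4 were lost in DESeq2 (SNX16, SNX24, VPS4A and VPS13C).

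Same-numbered samples did not deviate together (correlations -0.396 to 0.321, 2 of 6 over 0.1, mean -0.036 against 0.0077 for other numbers), and 1 of 6 siCHKA samples correlated best with its own number. With the replicate number as a block, 15 members were lower and 20 higher, SNX16 and VPS4A losing their calls (adjusted p 0.0668 and 0.0699), the members' median was 0.075, 23 partner genes were lower and 23 higher, and 15 pair ratios changed. Genes with shared exons, near-identical copies or pseudogenes are measured less surely, as 26.1% to 30.6% of counts fell to reads with several alignments. Of the 63 members, 11 share more than 10% of their exon bases with other genes. Those not given above are SNX21 (46.5%), SNX19 (25.5%), VPS52 (22.6%), VPS4A (21.5%), VPS51 (17.1%) and SNX17 (12.8%). Members with a mean under 1 CPM in both groups, SNX20 and SNX32, are limited by depth.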
